A study of Rattus norvegicus with 9 samples.

Results

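The adipocyte genes described here are Rbp4, Cfd, Car3, Angptl4, Cidea, Adipoq, Lpl, Plin1, Cd36 and Lipe, 10 genes that are strongly expressed by fat cells, measured in RNA of a small limb artery. Members were all probesets, the sets of short probes that report 1 transcript on these arrays, whose platform symbol was 1 of these names. This gave 11 probesets for 9 genes, of 10411 gene symbols on the array. No probeset carried the symbol of Adipoq, the hormone adiponectin, so it was not analysed here.

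Arteries came from the first side branch of the saphenous artery in the hind leg of male rats aged 16 weeks. Wistar-Kyoto rats (WKY), the normotensive strain, were untreated in 3 samples and received adrenocorticotropic hormone (ACTH), the pituitary hormone that drives adrenal corticosterone, in another 3, injected under the skin for 4 weeks at 0.1 mg/kg/day according to the labels (the study's methods state another dose). Spontaneously hypertensive rats (SHR), an inbred strain with genetic hypertension, gave 3 untreated samples; per the study's methods both strains descended from stock of the National Institutes of Health (NIH). Each sample pooled arteries of 2 or 3 rats after other tissue had been stripped from the vessel, was amplified through 2 cycles and was hybridised to 1 Affymetrix RAE230A array. All p-values therefore measure the spread between pools, and the ACTH and SHR groups share the same 3 WKY arrays as controls.

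Fat cells store triglyceride in a lipid droplet and secrete hormones and plasma proteins. Lipoprotein lipase frees fatty acids from circulating lipoproteins, Cd36 takes fatty acids up, droplet proteins such as perilipin and Cidea hold the store, and hormone-sensitive lipase, the product of Lipe, breaks it down. Most arteries lie in a sheath of perivascular fat, and several of these genes are also expressed outside fat cells, among them Lpl and Cd36 in muscle and macrophages and Angptl4 in many cells that respond to fatty acids or glucocorticoids.

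The promoters are printed for the 3 genes whose difference from WKY passed whichever array was left out, Rbp4 and Angptl4, higher in ACTH arteries, and Cidea, lower in SHR arteries. That of Cd36 is added because a probeset shared by Cd36 and a related gene was lower in SHR in the same way, while the probeset of Cd36 alone was not. Each line holds the 250 bases before the annotated start, 5′ to 3′ in the direction of the gene, from RefSeq on build GRCr8; 7 of the 10 genes had an entry. Capitals mark matches, on either strand, to the TATA box (TATAAA), found in 12.9% of 33469 rat promoter windows of this length, or the CCAAT box (CCAAT), found in 34.0%. The windows were also searched for the nuclear receptor core motif AGGTCA, its direct repeat AGGTCANAGGTCA that binds peroxisome proliferator-activated receptors and contains the core motif, the glucocorticoid receptor motif AGAACA, and the palindrome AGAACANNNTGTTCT, whose arms are that motif on either strand. None of these letters was in the windows of the 7 genes. Of all windows, 14.1%, 0.0508%, 17.5% and 0.012% held them, so their absence from 7 windows is no sign of depletion. Longer stretches were not searched.
Rbp4: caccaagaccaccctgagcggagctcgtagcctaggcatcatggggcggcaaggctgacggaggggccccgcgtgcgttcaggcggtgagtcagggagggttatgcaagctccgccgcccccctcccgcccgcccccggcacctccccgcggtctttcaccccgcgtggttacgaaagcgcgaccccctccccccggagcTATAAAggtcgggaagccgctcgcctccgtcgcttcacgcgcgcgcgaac
Angptl4: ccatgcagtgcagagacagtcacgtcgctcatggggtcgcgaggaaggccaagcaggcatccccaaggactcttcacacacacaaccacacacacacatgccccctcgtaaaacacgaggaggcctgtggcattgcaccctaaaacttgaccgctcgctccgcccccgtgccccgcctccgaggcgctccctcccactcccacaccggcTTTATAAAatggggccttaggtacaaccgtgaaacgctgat
Cidea: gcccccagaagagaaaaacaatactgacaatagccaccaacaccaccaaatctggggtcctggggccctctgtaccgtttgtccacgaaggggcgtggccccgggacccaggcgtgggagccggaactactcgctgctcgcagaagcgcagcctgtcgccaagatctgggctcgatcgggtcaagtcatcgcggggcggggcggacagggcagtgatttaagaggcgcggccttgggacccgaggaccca
Cd36: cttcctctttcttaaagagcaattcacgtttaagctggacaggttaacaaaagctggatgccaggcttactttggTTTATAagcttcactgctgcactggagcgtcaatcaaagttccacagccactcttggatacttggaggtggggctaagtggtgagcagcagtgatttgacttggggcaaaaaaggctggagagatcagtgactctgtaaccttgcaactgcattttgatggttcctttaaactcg
The Rbp4 window lies at chr1:245313552-245313801 on the minus strand, that of Angptl4 at chr7:15258682-15258931 on the minus strand, that of Cidea at chr18:63164567-63164816 on the plus strand and that of Cd36 at chr4:18246332-18246581 on the plus strand. The Rbp4 TATA box began at base -50 from the start. In Angptl4 the match on the sense strand began at base -39 and overlapped a match on the other strand that began at base -41. The Cd36 match, on the other strand, began at base -175, and the Cidea window held none of the motifs.

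Values are MAS5 signals, linear brightness scaled by the authors to the same trimmed mean on every array, and tests used log2 signals. Of 15866 probesets other than controls, 57.3% were kept for testing, those whose third-highest signal was 44.3 or more. Of the members, 10 probesets of 8 genes were kept; Plin1 was not. Car3 and Cd36 each had 2, called below the brighter (1367896_at) and dimmer (1386977_at) Car3 probesets, and the sole-symbol (1367689_a_at) and shared (1386901_at) Cd36 probesets, the last listed under a related gene as well. For 3 of those kept, Rbp4, the dimmer Car3 and the sole-symbol Cd36, no WKY array reached that minimum, so they entered through ACTH or SHR arrays. The SHR 1, SHR 2 and WKY 2 arrays were scanned on 1 day, SHR 3 and the 3 ACTH arrays on another, and WKY 1 and WKY 3 each on a day of its own. The ratio of 3′ to 5′ GAPDH signal, which rises as RNA degrades, ranged in WKY from 4.91 to 5.99, in ACTH from 3.67 to 4.52 and in SHR from 3.57 to 5.16.

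The label of these genes was checked against other fat-cell genes. Plin1, the perilipin of the fat-cell lipid droplet, gave signals of 9.58, 16.4 and 21.5 in WKY, 10.1, 25.4 and 2.89 in ACTH and 13.8, 9.21 and 2.77 in SHR, which placed it between the 7.48 and 32.7 percentiles of its arrays. Lep, the fat-cell hormone leptin, stayed between 1.21 and 6.41, and Cebpa, a transcription factor of fat-cell differentiation, between 0.664 and 8.21. These 3 genes were in the lower part of the arrays in every group. Other fat-cell genes were brighter, with Plin4, a further droplet protein, between the 90.8 and 95.3 percentiles, Slc2a4, the glucose transporter of fat and muscle, between 76.1 and 90.4 over its 2 probesets, and Pparg between 48.5 and 55.5. Fat-cell genes thus differed widely in level, and the members are named below by gene. In whole arteries, fewer cells of a type and less RNA per cell cannot be told apart.

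In ACTH-treated arteries, Rbp4, Cfd, Angptl4 and 1 of 2 Car3 probesets rose against WKY, by 3.83-fold to 8.01-fold, whereas no member passed as lower at an adjusted p under 0.05. The highest of these was Rbp4, whose WKY arrays were all under the minimum for testing. In SHR, 1 of 2 Car3 probesets rose 5.08-fold against WKY while Cidea and a Cd36 probeset shared with a related gene fell. Between the models, Rbp4, Angptl4, Cidea and the shared Cd36 probeset were lower in SHR than in ACTH arteries, and Lipe was higher. By limma with Benjamini-Hochberg adjustment over all kept probesets (adjusted p under 0.05), 4 of 10 member probesets passed in ACTH against WKY, where 1.21% of all kept probesets did (0.55% higher and 0.659% lower). In SHR against WKY 3 of 10 passed, beside 2.04% of all (0.967% higher and 1.08% lower), and in SHR against ACTH 5 of 10 passed, beside 3.4% of all (1.57% higher and 1.82% lower). An F test over the 3 groups passed for 7 of 10, beside 4.1% of all. Without the shared Cd36 probeset the counts were 4, 2 and 4 of 9. Of the members, 2 were lower in ACTH at an unadjusted p under 0.05, Lpl and Lipe. By the methods' tests, the study's F test and contrasts without moderation, Lpl was lower at the study's thresholds and 0 were after adjustment.

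**Figure D1:**
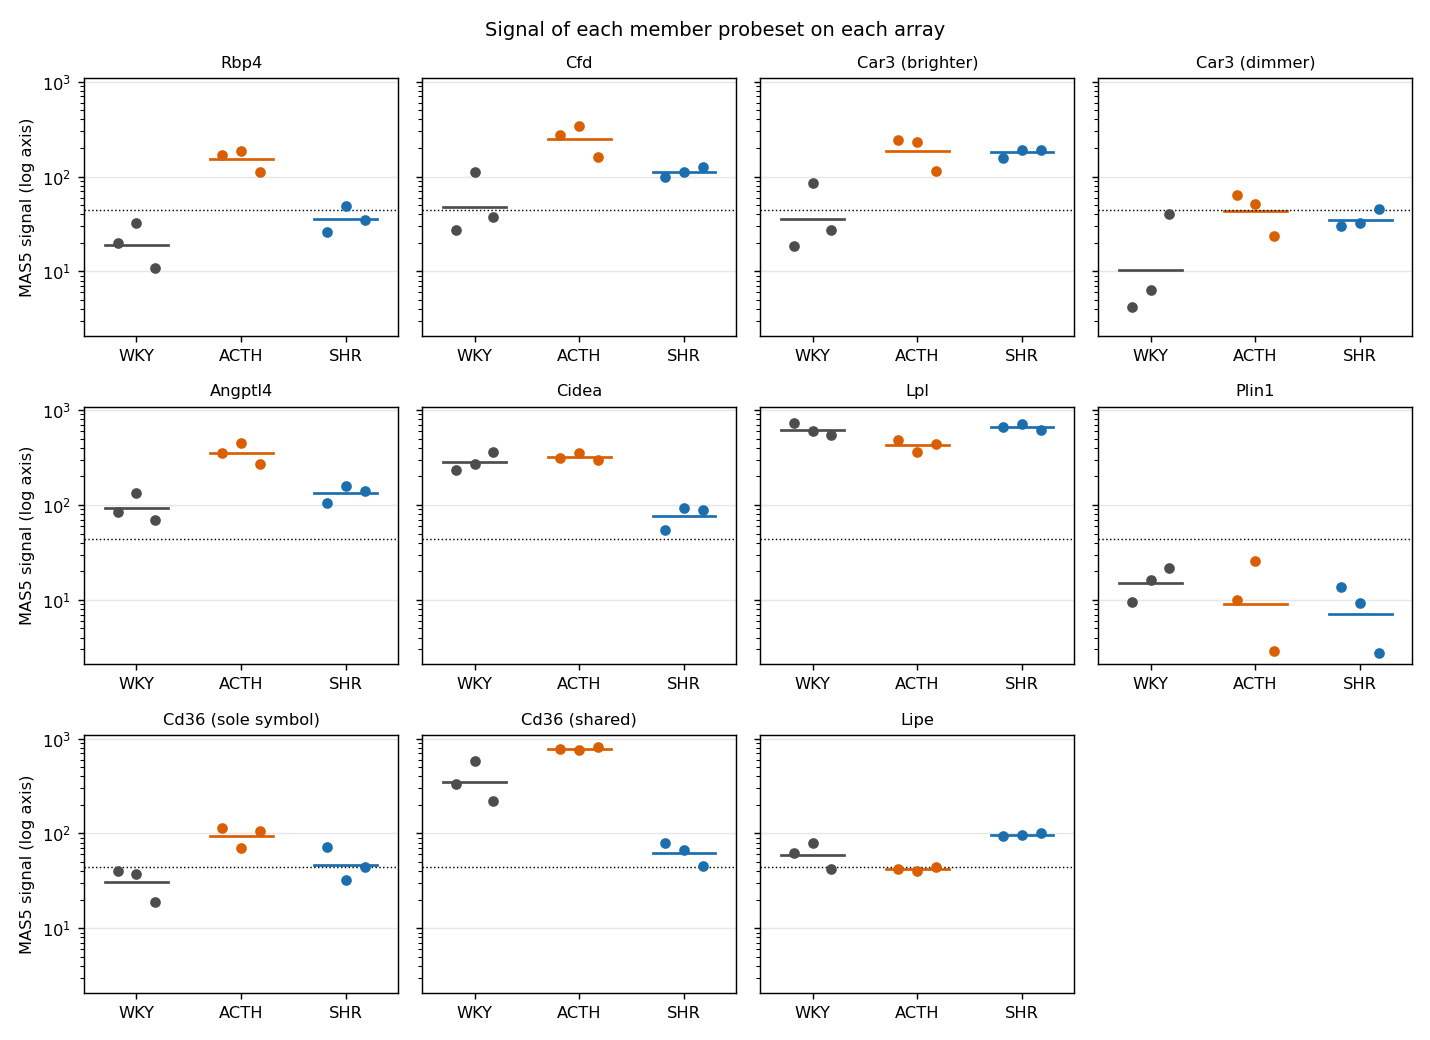
MAS5 signal (log axis) of the 11 member probesets on each of the 9 arrays, 3 per group in the order of the labels; bars are geometric means, and the dotted line marks the minimum third-highest signal of 44.3 needed for testing. The ACTH arrays sit above all WKY arrays for Rbp4, Cfd, Angptl4, the brighter Car3 probeset and both Cd36 probesets, and the SHR arrays sit below all others for Cidea and the shared Cd36 probeset.

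Rbp4 encodes the plasma carrier of retinol, made by liver and fat. Its signals were 20.1, 32.2 and 10.8 in WKY, 170.5, 188 and 112 in ACTH, and 26.1, 48.9 and 34.7 in SHR. The ACTH arrays were far above all others, and SHR arrays overlapped with WKY. On the log2 scale the difference between ACTH and WKY was 3.00 ± 0.37 (SE, n = 3 per group, adjusted p = 0.00668), an 8.01-fold higher signal. The SHR arrays fell by 2.12 ± 0.37 against ACTH (adjusted p = 0.0136) and differed from WKY by 0.89 ± 0.37 (adjusted p = 0.275). WKY signals lay between the 19.3 and 40.1 percentiles of their arrays, so the fold depends on dim readings. With 16 added to the signals the ACTH difference was 2.24 (adjusted p = 0.00119).

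Angptl4 encodes a secreted inhibitor of lipoprotein lipase. Signals were 84.0, 133 and 69.5 in WKY, 356, 450.3 and 271 in ACTH, and 105, 159.6 and 142 in SHR, so that again only ACTH arrays stood clear of the rest. The ACTH difference was 1.94 ± 0.27 (adjusted p = 0.00853), or 3.83-fold. SHR arrays fell by 1.40 ± 0.27 against ACTH on the log2 scale (adjusted p = 0.0207) and differed from WKY by 0.54 ± 0.27 (adjusted p = 0.359).

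Cfd encodes adipsin, the complement factor D secreted by fat cells. Signals were 27.2, 111 and 37.0 in WKY, 277, 339 and 159 in ACTH and 99.0, 112 and 126 in SHR. WKY 2 lay within the SHR range, while WKY 1 and WKY 3 were far lower. The ACTH difference was 2.36 ± 0.45 (adjusted p = 0.0362), or 5.12-fold, and the SHR difference from WKY was 1.21 ± 0.45 (adjusted p = 0.226), which passed only without WKY 2 (1.81, adjusted p = 0.0157).

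Car3 encodes carbonic anhydrase 3, an enzyme abundant in fat cells, liver and slow skeletal muscle. Its brighter probeset gave 18.5, 86.4 and 27.6 in WKY, 241, 232 and 114 in ACTH, and 157, 192 and 192 in SHR. Every array of both hypertensive groups exceeded every WKY array. Differences from WKY were 2.39 ± 0.49 in ACTH (adjusted p = 0.0460) and 2.34 ± 0.49 in SHR (adjusted p = 0.0375), and SHR against ACTH was -0.05 (95% interval -1.12 to 1.03). The dimmer probeset read 4.25, 6.36 and 40.6 in WKY, 64.0, 51.7 and 23.8 in ACTH, and 29.8, 32.2 and 45.4 in SHR. Its groups overlapped, and its differences of 2.05 ± 0.70 and 1.77 ± 0.70 did not pass (adjusted p = 0.235 and 0.248). Without WKY 3, its highest WKY array, both passed, at 3.04 in ACTH (adjusted p = 0.0178) and 2.76 in SHR (adjusted p = 0.0115).

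The calls in ACTH against WKY differed in how they held. With each of the 9 arrays left out in turn, Rbp4 passed in all 9 fits (2.59 to 3.38, adjusted p 0.00339 to 0.0369) and so did Angptl4 (1.73 to 2.20, 0.00401 to 0.0448). Cfd passed only in the fit without WKY 2 (2.96, adjusted p = 0.00339) and missed in the 8 that left out any other array (adjusted p 0.0531 to 0.145), and the brighter Car3 probeset likewise (3.04 without WKY 2, adjusted p = 0.00339, and 0.0617 to 0.187 otherwise). In SHR, that Car3 probeset passed without WKY 2 or without ACTH 3 and missed in the other 7 fits (adjusted p 0.0533 to 0.121), and blocked on scan day it was 1.01 (adjusted p = 0.446). No scan day held both ACTH and WKY arrays. With scan day as a block, a fit that compares these groups only by way of the SHR arrays, the ACTH differences were 2.29 for Rbp4 (adjusted p = 0.342), 1.27 for Angptl4 (0.529), 0.90 for Cfd (0.661) and 0.95 for Car3 (0.667). With the GAPDH ratio as a covariate they were 3.60, 2.46, 3.18 and 3.15, with adjusted p between 0.0691 and 0.189, and with every non-control probeset in the adjustment p was 0.0957 to 0.250.

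Lpl, lipoprotein lipase, was among the brighter probesets, between the 86.7 and 94.2 percentiles. Signals were 723, 601 and 549 in WKY, 485, 361 and 444 in ACTH, and 658, 719 and 616 in SHR. The ACTH arrays were the lowest and did not overlap with either group. Against WKY, Lpl passed in ACTH only by the methods' tests at the study's thresholds, without adjustment. The differences were -0.54 ± 0.16 in ACTH against WKY (adjusted p = 0.178), 0.10 ± 0.16 in SHR against WKY (0.81) and 0.64 ± 0.16 in SHR against ACTH (0.0656), and the last passed at a mean signal of at least 100 (adjusted p = 0.0387), with 16 added to the signals (0.0454) and with array weights (0.0347).

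Cd36, the fatty acid translocase, was read by 2 probesets that disagreed in SHR. The sole-symbol probeset gave 40.4, 37.6 and 18.9 in WKY, 113, 71.0 and 105 in ACTH, and 72.0, 32.6 and 43.8 in SHR. The ACTH arrays were above all WKY arrays, by 1.62 ± 0.35 (adjusted p = 0.0560, and 0.0385 without SHR 1), while SHR overlapped with WKY (0.61 ± 0.35, adjusted p = 0.408). The brighter, shared probeset was listed under both Cd36 and Cd36l1, a related gene. The transcript that the platform gives for it is Cd36's in RefSeq, but the listing under both genes leaves its signal unassigned here. It read 335, 585 and 220 in WKY, 786, 754 and 814 in ACTH, and 79.3, 67.3 and 45.1 in SHR. The 3 groups did not overlap, with SHR lowest and ACTH highest. SHR arrays fell by 2.50 ± 0.32 against WKY (adjusted p = 0.00268) and by 3.66 ± 0.32 against ACTH (adjusted p = 0.000215), or to 17.7% and 7.93% of those levels, and ACTH against WKY was 1.16 ± 0.32 (adjusted p = 0.137; 0.0234 without WKY 2). Within scan days, SHR 1 and SHR 2 at 79.3 and 67.3 stood against WKY 2 at 585, and SHR 3 at 45.1 against ACTH arrays of 754 or more. Both SHR differences passed in each of the 9 fits that left out an array and in the fit blocked on scan day, where SHR fell by 3.00 (adjusted p = 0.00235) and by 4.12 (adjusted p = 0.00127); with the GAPDH ratio as a covariate the difference from WKY missed (-2.58, adjusted p = 0.0629). SHR of the NIH stock are known to carry a defective Cd36 gene. Whether this defect bears on either probeset was not tested, nor were sequence differences between the strains under the probes.

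Cidea encodes a lipid droplet protein that in rodents is abundant in brown fat. Signals were 236, 268 and 361 in WKY, 316, 349 and 300.5 in ACTH, and 53.9, 92.6 and 88.1 in SHR. SHR arrays lay far below both other groups, which overlapped. The difference was -1.90 ± 0.23 against WKY (adjusted p = 0.00202) and -2.08 ± 0.23 against ACTH (adjusted p = 0.00125), or 26.8% and 23.7% of their levels, and ACTH differed from WKY by 0.18 ± 0.23 (95% interval -0.32 to 0.68). Both differences passed in all 9 fits that left out an array. Blocked on scan day they were -1.92 (adjusted p = 0.0943) and -1.87 (adjusted p = 0.0774), and within days, SHR 1 and SHR 2 at 53.9 and 92.6 stood against WKY 2 at 268, and SHR 3 at 88.1 against ACTH arrays of 300.5 or more. With the GAPDH ratio as a covariate the difference from WKY was -1.72 (adjusted p = 0.0686). Ucp1, the uncoupling protein that defines brown fat, read 1.99 to 14.5 over the 9 arrays, below the 27.4 percentile, and of the 7 brown fat genes on the array only Fabp3 was kept (0.29 in ACTH and 0.07 in SHR against WKY, not passing).

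Lipe read 61.7, 79.6 and 42.3 in WKY, 42.4, 40.5 and 44.6 in ACTH, and 93.6, 95.6 and 101 in SHR. SHR arrays were above all others, and ACTH overlapped with the lowest WKY array. SHR exceeded ACTH by 1.18 ± 0.20 (adjusted p = 0.0117), or 2.27-fold. Against WKY the differences were 0.70 ± 0.20 in SHR (adjusted p = 0.123, and 0.0358 without WKY 2) and -0.48 ± 0.20 in ACTH (adjusted p = 0.369). Leaving out ACTH 1 ended the SHR call against ACTH (1.15 to 1.22 over the 9 fits, adjusted p = 0.0532 without ACTH 1). Leaving out ACTH 1 or ACTH 2 also ended it for Rbp4 (adjusted p = 0.0598 at most), and 4 of 9 fits ended it for Angptl4, those without ACTH 1, ACTH 2, SHR 1 or SHR 3 (0.0558 to 0.0769). Blocked on scan day, SHR against ACTH was 1.24 for Lipe (adjusted p = 0.0574), -2.14 for Rbp4 (0.0996) and -1.31 for Angptl4 (0.21); on the day they shared, SHR 3 read 34.7 for Rbp4 and the ACTH arrays 112 or more.

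**Figure D2:**
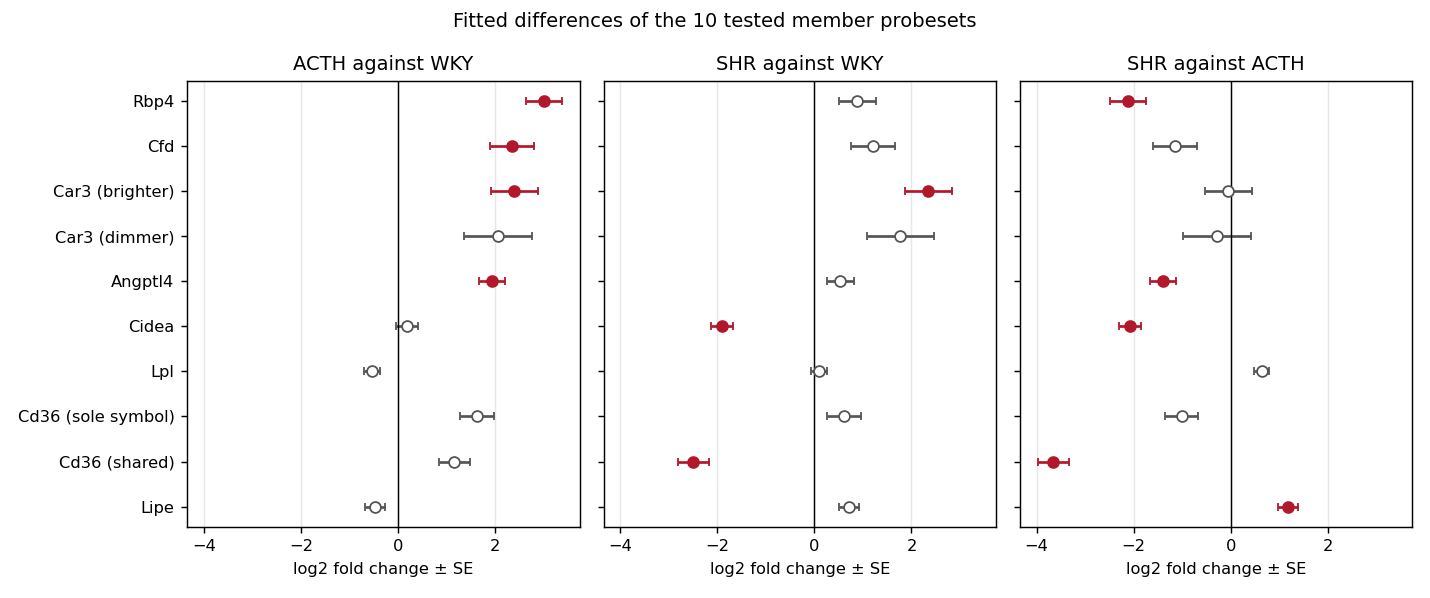
Fitted log2 fold change with its standard error (x axis) for the 10 tested member probesets (y axis) in the 3 comparisons; filled red points passed adjusted p under 0.05. Rbp4, Cfd, Angptl4 and the brighter Car3 probeset are to the right in ACTH against WKY, at 1.94 to 3.00, while Cidea and the shared Cd36 probeset are to the left in SHR, at -1.90 and -2.50 against WKY.

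The members did not move as a block. The arrays of ACTH and WKY did not overlap for 7 of 10 member probesets (20.5% of all kept probesets), 6 higher and Lpl lower. SHR and WKY arrays did not overlap for 4 (19.4% of all), the brighter Car3 probeset and Lipe higher and Cidea and the shared Cd36 probeset lower. SHR and ACTH arrays did not overlap for 7 (24.9% of all). By gene, over the 8 genes kept without the shared probeset, the median log2 difference was 1.78 in ACTH and 0.66 in SHR against WKY, beside 0.02 and 0.00 over all genes. The members were chosen with earlier results of these data known, so these medians describe them and test nothing. For Rbp4 and the sole-symbol Cd36 probeset, no WKY array reached the minimum for testing.

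Other fat-cell genes were read from a list of 14. Of these, 12 had a probeset and 8 were kept, with 9 probesets: Fabp4, Gpd1, Pck1, Plin4, Pparg, Slc2a4, Sncg and Thrsp. None passed in ACTH or in SHR against WKY by limma (2 and 3 at an unadjusted p under 0.05, and none by the methods' tests after adjustment). Of all kept probesets 1.21% and 2.04% passed by limma, so no call among 9 is near those shares. The medians by gene were 0.14 and 0.25. Fabp4, the fatty acid binding protein of fat cells and capillary endothelium, read 33.6, 72.6 and 10.1 in WKY, 39.1, 33.3 and 31.8 in ACTH, and 63.2, 88.4 and 78.2 in SHR. ACTH arrays lay inside the WKY range, at 0.25 ± 0.54 on the log2 scale (adjusted p = 0.906), where Rbp4 differed by 3.00. The WKY arrays of Fabp4 spread widely, so this difference is imprecise. Pck1 read 15.0, 43.6 and 44.3 in WKY, 75.6, 96.6 and 34.2 in ACTH, and 34.5, 46.9 and 36.8 in SHR. It differed by 1.04 ± 0.45 in ACTH (adjusted p = 0.379), and 6 of the 8 genes were above 0 there. Pparg, the receptor that drives fat-cell differentiation, read 49.8 to 74.0 over all arrays and differed by 0.16 and 0.17.

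Thrsp, a lipogenic protein also called Spot 14, had dim WKY arrays. It read 13.0, 45.1 and 18.3 in WKY, 95.8, 76.4 and 40.9 in ACTH, and 97.4, 90.7 and 61.7 in SHR, with differences of 1.60 (adjusted p = 0.138) and 1.89 (0.0589). The brightest genes of the list were Sncg, gamma-synuclein, which is also expressed by neurons, at 2419 to 4190, and Plin4 at 506 to 850. Sncg was higher in SHR than in ACTH by 0.60 (adjusted p = 0.0361). Summed over the list, signal ranged over 4271 to 4508 (WKY), 3739 to 4237 (ACTH) and 5121 to 5304 (SHR), most of it from Sncg. Without Sncg the sums overlapped, at 1164 to 1490 (WKY), 1319 to 1559 (ACTH) and 1114 to 1437 (SHR). Most of that signal came from Plin4 and Slc2a4 (314 to 480 on its brighter probeset), and dim genes such as Thrsp and Pck1 weighed little. The sum over the 8 member genes ranged over 1115 to 1349 (WKY), 1551 to 2031 (ACTH) and 1264 to 1452 (SHR). Fat-cell content was not tested by these sums. Taken as a ratio within each array to the 9 probesets of this list, Rbp4 differed by 2.72, Cfd by 2.08, the brighter Car3 probeset by 2.11 and Angptl4 by 1.66 between ACTH and WKY, and Cidea by -2.41 between SHR and WKY. In each of these the 3 arrays of 1 group were beyond those of the other, and the exact two-sided permutation p was 0.1, the smallest that 3 against 3 allow (0.200 after adjustment over 30 ratios). The reference held the bright probesets of Sncg, Plin4 and Slc2a4, and not the dim Plin1, Lep and Cebpa. Fat-cell content was not tested by these ratios either.

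**Figure D3:**
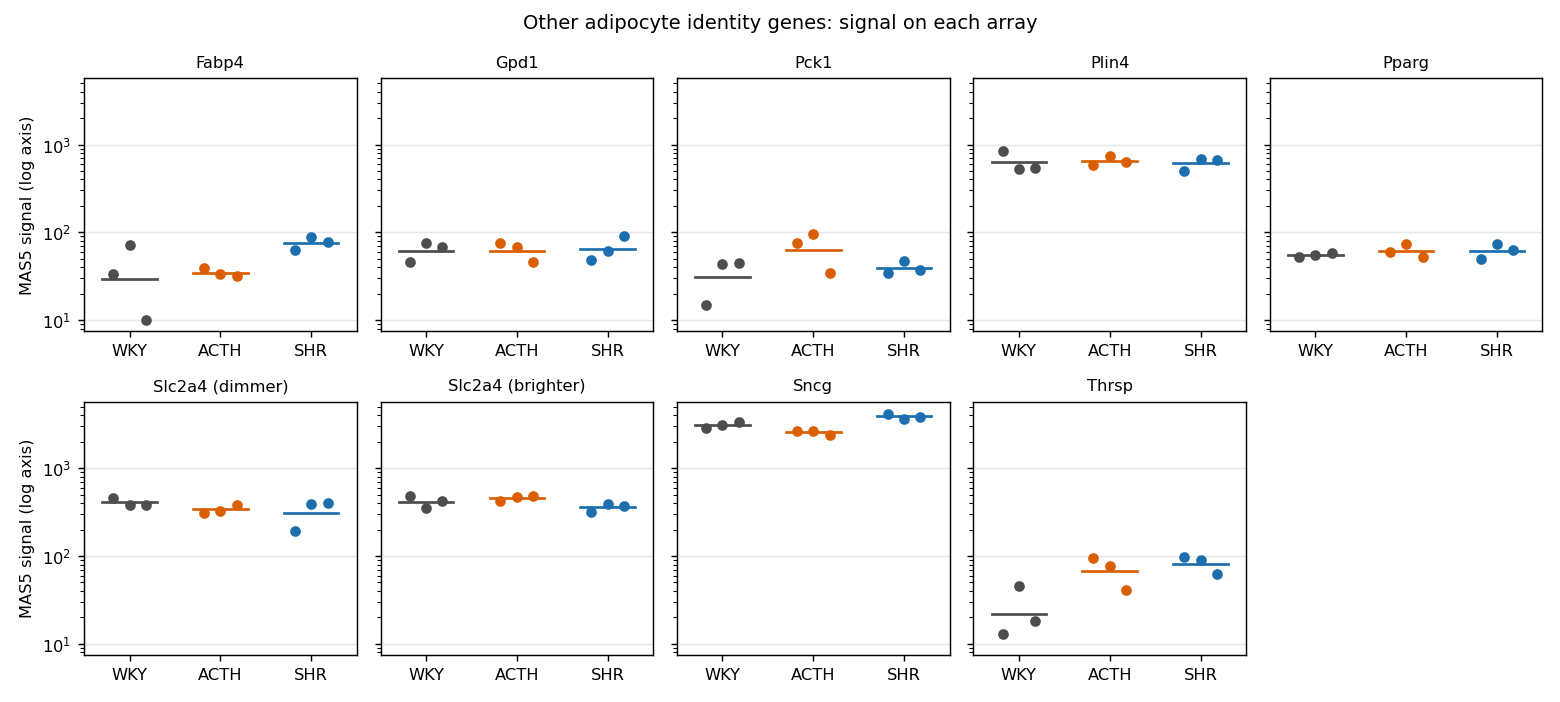
MAS5 signal (log axis) of the 9 kept probesets of the other fat-cell genes on each array, 3 per group; bars are geometric means. Fabp4 in ACTH (31.8 to 39.1) lies inside the WKY range of 10.1 to 72.6, and the Thrsp arrays of WKY read 13.0 to 45.1, against 40.9 to 97.4 in the other groups.

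Rbp4, Cfd, the brighter Car3 probeset and Angptl4 shared the array at 1 end of each group. WKY 2 was the highest WKY array for these 4 as well as for the shared Cd36 probeset and Lipe, 6 of 10 probesets in all, and ACTH 3 was the lowest ACTH array for 6 of 10, the same 4, the other Car3 probeset and Cidea. SHR 1 was the lowest SHR array for these 4, whose other arrays did not keep 1 order. Over the 9 arrays, log2 signals of Angptl4 had a Pearson r of 0.99 with Rbp4, Cfd 0.90, the sole-symbol Cd36 probeset 0.80, the brighter Car3 probeset 0.72 and Lpl -0.72; these points share their libraries and groups. Genes that were no members and lay closest to Rbp4 were Aldh3a1, an aldehyde dehydrogenase (r = 0.95), Cnn3, calponin 3 (0.94), and F3, tissue factor (0.94). In ACTH against WKY, Aldh3a1 differed by 1.40 (adjusted p = 0.00816), F3 by 1.28 (0.00732) and Cnn3 by 0.49 (0.158). These genes were picked for their likeness to Rbp4 over the same arrays, so their differences are no independent test.

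WKY 2 and ACTH 3 also stood apart in some macrophage genes. Of 13 markers, 10 were on the array and 8 were kept; C1qc, a chain of complement C1q, read 35.0, 165 and 50.9 in WKY, 392, 402 and 240 in ACTH, and 126, 151 and 97.3 in SHR. WKY 2 was the highest WKY array and ACTH 3 the lowest ACTH array for C1qc and for the sum over the list, but SHR 3, not SHR 1, was the lowest SHR array for both. WKY 2 was also the highest WKY array for summed fibroblast, Schwann cell and red blood cell markers, but not for endothelial, smooth muscle or skeletal muscle markers. ACTH 3 was also the lowest ACTH array for fibroblast and smooth muscle markers, but not for the other lists of this kind. These orders were thus not particular to macrophage genes. C1qc rose in ACTH by 2.34 (adjusted p = 0.0459), the only macrophage gene to pass there, although all 8 had an unadjusted p under 0.05, and Cd14, a receptor for bacterial lipopolysaccharide, did not pass (0.88, adjusted p = 0.0535) and was lower in SHR than in ACTH (-0.83, adjusted p = 0.0373). All 8 were above 0 in both comparisons with WKY, with medians of 1.35 and 0.83. Summed macrophage signal was 478, 1388 and 547 in WKY, 2233, 2445 and 1643 in ACTH, and 1637, 1405 and 1103 in SHR. The part of macrophage RNA in the values of Rbp4, Cfd, Car3 and Angptl4 was not tested.

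**Figure D4:**
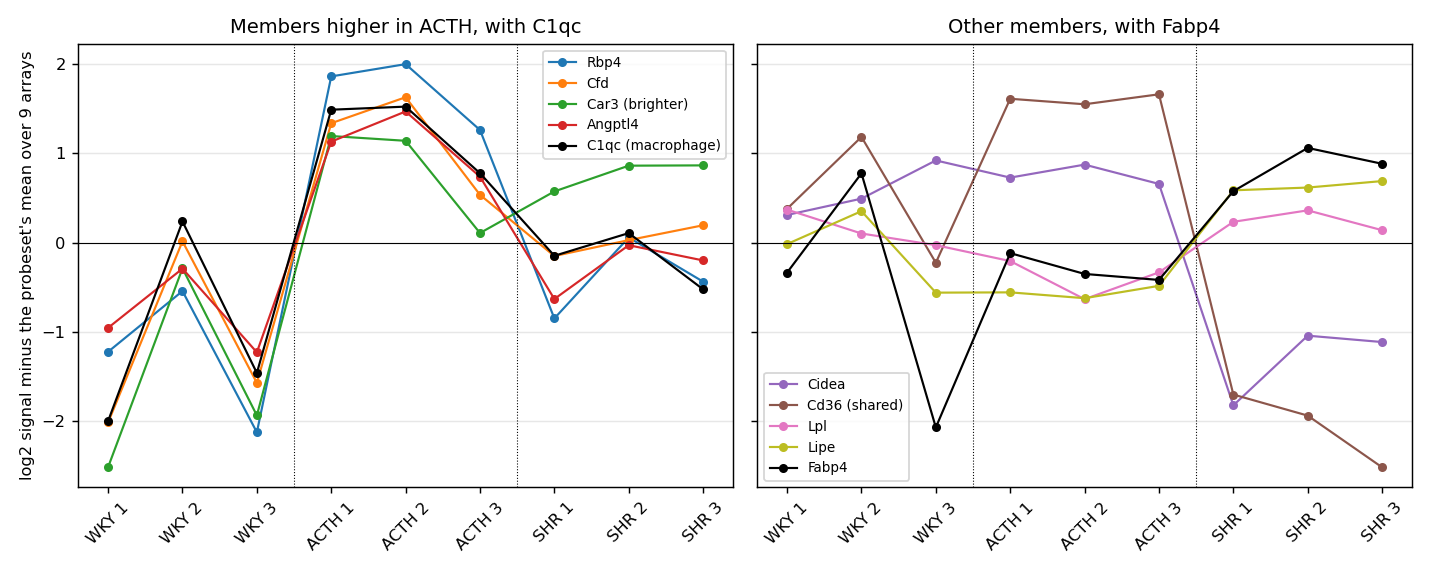
Log2 signal of each probeset minus its own mean over the 9 arrays (y axis), array by array (x axis). On the left, Rbp4, Cfd, the brighter Car3 probeset, Angptl4 and the macrophage gene C1qc are all higher in WKY 2 than in the other WKY arrays and lowest of the ACTH arrays in ACTH 3; on the right, Cidea and the shared Cd36 probeset are low in all 3 SHR arrays, where Lipe is high.

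Skeletal muscle, which also contains Car3 and Lpl, was checked because the artery runs along limb muscle. Of its 17 markers on the array 5 were kept, with sums from 1234 up to 1356 for WKY, from 1357 up to 1440 for ACTH and from 1628 up to 1703 for SHR. Acta1, skeletal actin, rose in SHR by 0.92 (adjusted p = 0.0105), from a mean signal of 477 in WKY to 893. In signal units that was a larger rise than for any other gene in the sum. On the log2 scale Myl1, a skeletal myosin light chain, rose more, by 1.05, but did not pass (adjusted p = 0.0608). It read 57.2, 54.4 and 90.8 in WKY, 67.2, 87.3 and 60.6 in ACTH, and 142, 104 and 168 in SHR. The SHR arrays of Myl1 were above all others, and SHR against ACTH was 0.94 (adjusted p = 0.0695). Of 5 Myh1 probesets, for a fast myosin, 1 fell by 0.79 (0.0332), while the other 4 did not pass (-0.96 to -0.10). Markers that were not kept were dim in every group, among them Ckm (20.7 to 44.2), Tnnc2 (7.83 to 27.8) and Mb (0.773 to 11.7). No hepatocyte marker was kept of 7 on the array, although liver is a major source of Rbp4. Smooth muscle markers summed to 21980 to 26678 in WKY and overlapped in ACTH (23442 to 24736) and SHR (23258 to 24955). Within that list Des, the muscle filament desmin, fell in SHR by 1.45 against WKY (adjusted p = 0.00708) and by 1.25 against ACTH (adjusted p = 0.0136), and Lmod1, leiomodin, was at -0.80 against WKY (adjusted p = 0.150).

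Few probesets of neighbouring lipid pathways passed, but few of all kept probesets did. The shares were 1.21% in ACTH against WKY, 2.04% in SHR against WKY and 3.4% in SHR against ACTH. A count of 0 in lists this short is near those shares. Of 16 kept probesets for fatty acid and triglyceride synthesis, none passed in ACTH or SHR against WKY by limma (4 and 2 at an unadjusted p under 0.05, none by the methods' tests after adjustment), and Acsl1, which activates fatty acids, was lower in SHR than in ACTH (-0.59, adjusted p = 0.0457). Of 11 for lipolysis and the lipid droplet, G0s2, the inhibitor of adipose triglyceride lipase, rose in SHR (0.78, adjusted p = 0.0424), with 0.75 in ACTH (0.0652). Of 8 for peroxisome proliferator-activated receptor targets of fatty acid oxidation none passed in any of the 3 comparisons by limma (2, 2 and 1 at an unadjusted p under 0.05) or by the methods' tests. Among 9 for receptors and partners, a probeset of Cdh13, T-cadherin, which binds adiponectin, fell in ACTH (-0.79, adjusted p = 0.0377), with -0.46 and -0.37 on its other probesets. Gpihbp1, the capillary anchor of lipoprotein lipase, read 24.3, 40.4 and 51.5 in WKY, 47.1, 56.1 and 40.4 in ACTH and 57.3, 66.2 and 74.8 in SHR, with SHR arrays the highest but the difference not passing (0.83, adjusted p = 0.143). Of 16 for the glucocorticoid response, 2 passed in ACTH against WKY, both lower: Per1, a clock gene (-2.92, adjusted p = 0.0345), and Ddit4, a stress-induced inhibitor of mTOR (-1.40, adjusted p = 0.0175). Cdkn1a, the cell cycle inhibitor p21, fell in SHR against WKY (-1.25, adjusted p = 0.00982). Between the models, Dusp1, a phosphatase of MAP kinases, was lower in SHR than in ACTH (-1.43, adjusted p = 0.00452), and Tsc22d3, a glucocorticoid-induced leucine zipper protein, was higher (0.80, adjusted p = 0.0175).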

How the data were processed

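RNA was measured on 9 Affymetrix RAE230A arrays, 3 per group. The deposited values are MAS5 signal intensities that the authors scaled to a common mean per array. Detection calls were not used here. From these intensities log2 values were taken and 57.3% of probesets were retained, ranked by their third-highest signal, in place of the authors' detection filter. Groups were compared with limma 3.58.1 in R 4.3.3 (lmFit and eBayes, 6 residual and 4.44 prior degrees of freedom), two-sided, with Benjamini-Hochberg adjustment over all kept probesets and a threshold of 0.05; the fit was tested on simulated data. The number of arrays limits the precision. Gene names come from the platform annotation, in which 12789 probesets had 1 symbol. A ratio to Adipoq was planned, but no probeset carried that symbol, so ratios used 9 other fat-cell probesets. Named were all members, probesets past the threshold in the lists shown (at most 4 per list), the kept of 6 preset fat genes and the 3 genes nearest to Rbp4. Of the fibroblast, Schwann cell, endothelial and red blood cell lists only sums were used. Thrsp, Pck1, Plin4, Slc2a4, Lep, Ucp1, Cebpa, Gpihbp1, Lmod1, Per1, Myl1, Ckm, Tnnc2 and Mb were named after their values were seen. The members and gene lists were chosen with earlier results of these data known. Alternatives were the filter, normalization, a pseudocount of 16, array weights, the GAPDH ratio, scan day, the replicate number, the methods' unmoderated tests and leaving out each array.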

Additional observations from a re-analysis of the deposited data

Results flagged for a closer look

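Of the 10 kept member probesets, 4 had opposite signs against WKY in the 2 models, and the test of the difference between the models passed for 3 of them. It did not pass for Lpl, at -0.54 in ACTH and 0.10 in SHR (0.64 between the models, adjusted p = 0.0656). The Cd36 probeset shared with Cd36l1 was at 1.16 in ACTH and -2.50 in SHR, and SHR against ACTH was -3.66. Cidea was at 0.18 and -1.90, with -2.08 between the models, although its ACTH difference was within the spread of the arrays. Lipe was at -0.48 and 0.70, with 1.18 between the models, and neither difference from WKY passed alone. No cause was tested.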

How the results depend on the processing

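Counts of members that passed were 4, 3 and 5 of 10 in ACTH against WKY, SHR against WKY and SHR against ACTH. They were 0, 2 and 2 over all non-control probesets, where many dim probesets enter the adjustment, 0, 0 and 5 with the GAPDH ratio as a covariate, 0, 1 and 1 with scan day as a block, which leaves 3 residual degrees of freedom, and 0, 1 and 2 by the methods' tests after adjustment. At an unadjusted p under 0.05 the zero counts in ACTH were 8 (all probesets), 6 (GAPDH), 5 (scan day) and 7 (methods' tests), and the zero count in SHR was 7. Leaving out each array in turn gave 2 to 5, 2 to 5 and 2 to 5; the highest count in SHR came without WKY 2. Same-numbered arrays of different groups had deviations that correlated between -0.07 and 0.13, over 0.1 in 1 of 9 pairs, so the numbers do not pair the samples; a replicate block gave 5, 3 and 5, with 97, 158 and 261 calls over all probesets in place of 110, 186 and 309. Over all probesets no call was made in ACTH against WKY with all probesets, the GAPDH ratio or scan day.

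Of 588 fold changes under alternatives, 498 kept their direction and side of the threshold, 65 no longer passed, 15 newly passed and 10 reversed, none of which had passed. Scan day turned Cfd (-0.0760) and Angptl4 (-0.0390) in SHR against WKY, Cidea (-0.0581) in ACTH against WKY, and Car3 (0.0512 for the brighter and 0.0836 for the dimmer probeset) in SHR against ACTH. The GAPDH ratio turned Lpl in SHR against WKY (-0.0356). Leaving out arrays spanned -0.40 to 0.14 for the brighter Car3 probeset and -0.71 to 0.0058 for the dimmer in SHR against ACTH. Of 300 ratios to the fat-cell probesets, 9 reversed, all with an array left out: in SHR against WKY, Rbp4 spanned -0.0751 to 0.63, Angptl4 -0.21 to 0.23, the sole-symbol Cd36 probeset -0.28 to 0.45 and Lipe -0.0856 to 0.37, and in ACTH against WKY Cidea spanned -0.34 to 0.0533. No cause was tested.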
